A study of Mus musculus with 24 samples.

Results

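The 10 genes described here encode enzymes that make or break down prostaglandins and the receptors for prostaglandin E2 (PGE2). They were taken by name from the gene tables of the series: *Ptgs1* and *Ptgs2* (the cyclooxygenases COX-1 and COX-2), *Ptges*, *Ptges2* and *Ptgis* (terminal synthases), *Hpgd* (the enzyme that inactivates prostaglandins), and *Ptger1*, *Ptger2*, *Ptger3* and *Ptger4* (the PGE2 receptors EP1 to EP4). The rule names the genes and uses no measured value, although the set was proposed with earlier results of these data known. All 10 were among the 55471 genes of the tables, and 9 of them were among the 17522 genes that passed the filter on low counts and were tested; *Hpgd* did not pass.

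The data are RNA-seq counts from 24 libraries of 3T3 mouse embryonic fibroblasts (MEFs), an immortalized fibroblast line, in 8 groups of 3. The groups were wild-type MEFs, MEFs without *Lkb1* (*Lkb1*-/-), and clones A1 and A2 of *Lkb1*-/- MEFs that were also edited with CRISPR at *Crtc2* (*Lkb1*-/-/*Crtc2*-/-), each left untreated or exposed to IL-1β, an inflammatory cytokine, for 6 hours. LKB1, the product of *Stk11*, is a kinase that activates the SIK kinases, and CRTC2 is a coactivator of the transcription factor CREB that the SIKs hold in the cytoplasm. The wild-type and *Lkb1*-/- MEFs were 1 line each, so that a difference between these lines and the effect of *Lkb1* cannot be told apart. The edit of *Crtc2* was carried by 2 clones, which were set against the same *Lkb1*-/- line. By the methods of the study, each clone was grown from a single cell. The edit and the cloning therefore cannot be told apart. The wild-type line, the *Lkb1*-/- line and the 2 clones are called the 4 lines here. Nothing says that the 3 libraries of a group came from separate cultures, so that p-values measure only the spread between these libraries.

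Prostaglandins are lipid signals made from arachidonic acid. Phospholipases free arachidonic acid from membranes, a cyclooxygenase turns it into prostaglandin H2, and terminal synthases convert this into PGE2, prostacyclin and the other products. COX-1 is usually described as the steady form and COX-2 as the form induced by inflammatory stimuli. PGE2 leaves the cell and acts through its receptors, of which EP2 and EP4 raise cAMP, EP1 raises calcium and EP3 lowers cAMP. Fibroblasts are a known source of PGE2 during inflammation.

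Each library held between 38842901 and 48594394 read pairs counted on genes. Levels are given in CPM, the counts of a gene relative to the TMM-scaled size of its library, fold changes as log2 values with their standard error (SE) from edgeR's quasi-likelihood test over all 24 libraries, and a gene was called where its Benjamini-Hochberg adjusted p was under 0.05. Untreated wild-type MEFs had 86.0 ± 1.68 CPM of *Stk11* (SD, n = 3) against 17.3 ± 1.24 in untreated *Lkb1*-/- MEFs, and *Crtc2* lay at 81.1 ± 1.80 in untreated *Lkb1*-/- MEFs, 42.9 ± 2.11 in clone A1 and 49.8 ± 0.864 in clone A2, so that both edited genes were lower where the labels name them, with transcripts still counted. The summed level of 10 fibroblast markers lay between 5717 and 9936 CPM in every library, a sum that hides markers far apart between the lines. From untreated wild-type to untreated *Lkb1*-/- MEFs, *Dcn* went from 0.411 to 218 CPM, *Pdgfra* from 4.58 to 342 and *Fn1* from 640 to 2014, *Col1a2* went from 780 to 63.0, and *Thy1* did not pass 0.0623 CPM in any library. Over the libraries outside wild-type MEFs, *Dcn* ranged from 14.2 to 581 CPM and *Col1a2* from 28.5 to 280. The part of such differences between the lines in the results was not tested. The leukocyte markers *Ptprc* and *Adgre1* and the endothelial marker *Cdh5* did not pass 0.0250 CPM in any library.

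*Ptgs2* and *Ptges* are shown with the sequence before their starts because they changed with IL-1β and with the *Crtc2* edit, and *Ptger2* because it had no count in wild-type MEFs. RefSeq promoter windows (GRCm38.p6, from 250 bases before to 50 after the annotated start) were at hand for 8 of the 10 genes. The first window listed for a gene was taken, so that other starts were not searched. That of *Ptges* lies inside the annotated span of the gene (chr2:30889471-30929863). The lines below give the 250 bases before the start, 5′ to 3′ on the strand of the gene, at chr1:150099781-150100030 on the plus strand for *Ptgs2*, at chr2:30903298-30903547 on the minus strand for *Ptges* and at chr14:44987861-44988110 on the plus strand for *Ptger2*. The fourth line gives 30 bases of the annotated first exon of *Ptgs2* (chr1:150100032-150100061). Capitals mark matches to the motifs described after the lines.
*Ptgs2*: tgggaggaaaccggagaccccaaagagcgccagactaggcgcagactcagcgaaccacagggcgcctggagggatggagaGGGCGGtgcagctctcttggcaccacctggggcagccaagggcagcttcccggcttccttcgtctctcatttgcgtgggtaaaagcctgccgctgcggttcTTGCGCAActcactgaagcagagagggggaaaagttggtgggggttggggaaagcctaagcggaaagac
*Ptges*: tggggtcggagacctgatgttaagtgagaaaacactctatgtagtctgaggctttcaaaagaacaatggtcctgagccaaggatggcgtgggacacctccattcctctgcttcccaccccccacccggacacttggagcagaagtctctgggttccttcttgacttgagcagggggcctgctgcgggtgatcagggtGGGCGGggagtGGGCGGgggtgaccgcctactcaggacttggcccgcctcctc
*Ptger2*: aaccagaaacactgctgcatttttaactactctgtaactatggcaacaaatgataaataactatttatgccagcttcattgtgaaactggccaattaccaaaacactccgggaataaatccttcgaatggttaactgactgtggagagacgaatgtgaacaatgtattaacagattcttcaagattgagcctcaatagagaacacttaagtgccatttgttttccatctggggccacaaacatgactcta
*Ptgs2*, first exon: gagtcaccactaCGTCAcgtggagtccgct

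The motifs searched on both strands of the windows were the CRE core TGACG (part of the element that CREB binds), the full CRE TGACGTCA, an AP-1 site TGANTCA, the NF-κB letters GGANTTTCC, the TATA box TATAAA and, added after the windows had been read, the C/EBP site TTGCGCAA and the GC box GGGCGG. The full CRE contains the core, on either strand. Of the 8 windows, only that of *Ptgs2* held the CRE core, on the other strand from base 14 of the transcript, against 20.8% of the 32851 windows of all genes. The same window held the C/EBP letters, found in 0.183% of all windows, and a GC box. *Ptges* held 2 GC boxes, a motif of 35.7% of all windows, and *Ptger2* held none of the letters searched. None of the 8 windows held the full CRE (1.79% of all windows), the AP-1 site (7.81%) or the NF-κB letters (1.25%), and the TATA box (13.6%) was in that of *Hpgd*. The NF-κB letters took the place of a looser form, searched first, which had matched the window of *Ptger3* and no other of the 8, so that this choice was made with both outcomes known. These are matches of letters within these windows and say nothing about binding.

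**Figure D1:**
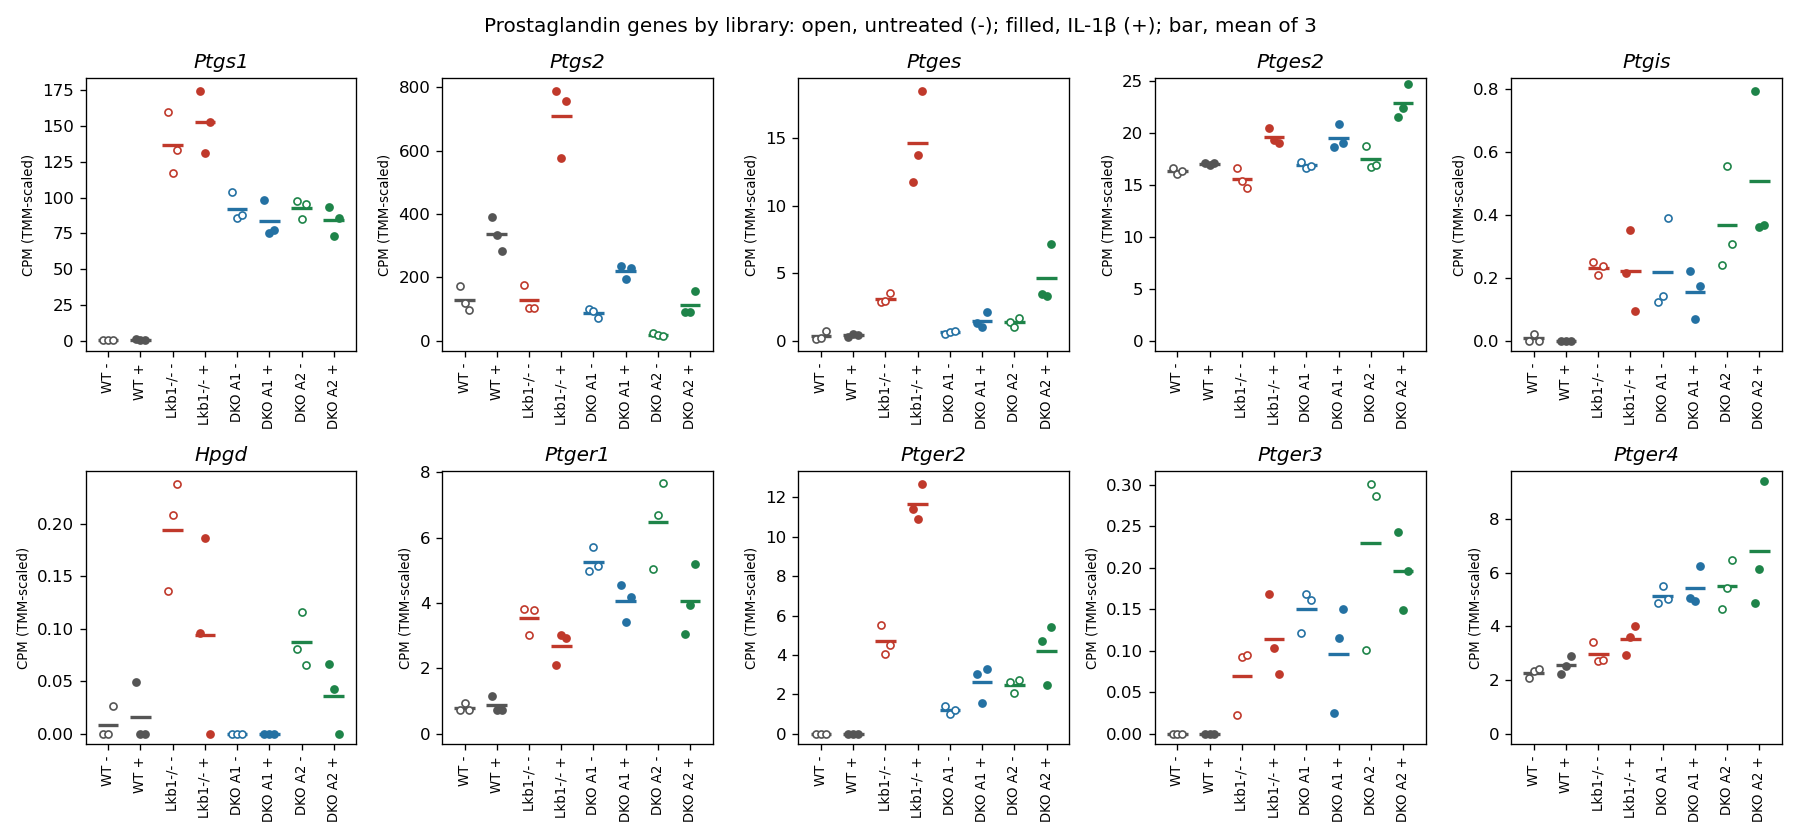
Level of each of the 10 genes in every library, in TMM-scaled CPM on linear axes, with untreated libraries as open and IL-1β libraries as filled points and the mean of 3 as a bar. *Ptgs1*, *Ptger2* and *Ptger3* sit at or near 0 in the 6 wild-type libraries, and *Ptgs2*, *Ptges* and *Ptger2* are highest in the 3 *Lkb1*-/- libraries with IL-1β.

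The first question was how *Lkb1*-/- MEFs differed from wild-type MEFs. Without treatment, 6 of the 9 genes tested were called, all of them higher in *Lkb1*-/- MEFs (*Ptgs1*, *Ptges*, *Ptgis*, *Ptger1*, *Ptger2* and *Ptger3*). Over all genes tested 55.9% were called in this comparison, 30.1% as higher. *Ptger2*, *Ptger3* and *Ptgis* passed the filter on low counts through groups other than wild-type and could be called in no other direction, so that these counts are a description. With IL-1β, 8 of the 9 were called and all were higher, the 6 named before together with *Ptgs2* and *Ptges2*, where 57.4% of all genes were called, 30.2% as higher.

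*Ptgs1*, which encodes the steady cyclooxygenase, was close to 0 in wild-type and abundant in *Lkb1*-/- MEFs. Untreated wild-type libraries held 38, 33 and 34 counts of it, at 0.849, 0.760 and 0.887 CPM, and untreated *Lkb1*-/- libraries held 7054, 5050 and 5597 counts, at 159.7, 117 and 133 CPM. The groups lay far apart, with a log2 fold change of 7.36 ± 0.21 (SE) and an adjusted p of 4.2e-17. With IL-1β the wild-type libraries lay at 1.11, 0.514 and 0.802 CPM and the *Lkb1*-/- libraries at 175, 131 and 153 CPM, which differed on the log2 scale by 7.57 ± 0.21 (adjusted p = 3.5e-17). IL-1β itself gave no call for *Ptgs1* in any line in this fit, with log2 changes between -0.14 and 0.16.

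*Ptgs2*, the inducible cyclooxygenase, did not follow *Ptgs1*. Its untreated levels were 173, 118 and 97.8 CPM in wild-type and 177, 104 and 104 CPM in *Lkb1*-/- MEFs. These ranges overlapped almost wholly, and the log2 fold change was -0.02 ± 0.25 (adjusted p = 0.97). With IL-1β, wild-type libraries lay at 389.9, 334 and 284 CPM and *Lkb1*-/- libraries at 789, 577 and 757 CPM, so that all 3 *Lkb1*-/- libraries were above all 3 wild-type libraries, by 1.07 ± 0.25 on the log2 scale (adjusted p = 0.00099).

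Per kb of exon, the scale on which genes can be compared, *Ptgs2* was the main cyclooxygenase transcript of wild-type MEFs and *Ptgs1* was the higher of the pair in untreated *Lkb1*-/- MEFs. Untreated wild-type MEFs had 28.3 ± 8.43 CPM per kb of *Ptgs2* and 0.214 ± 0.0168 of *Ptgs1* (mean ± SD, n = 3). Untreated *Lkb1*-/- MEFs had 28.0 ± 9.17 of *Ptgs2* and 35.2 ± 5.53 of *Ptgs1*, a difference that was not tested, and with IL-1β 154.5 ± 25.0 of *Ptgs2* and 39.4 ± 5.56 of *Ptgs1*. Untreated clone A2 was the group in which *Ptgs2* was lowest, with 4.32 ± 1.26 against 23.9 ± 1.79 of *Ptgs1*.

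**Figure D2:**
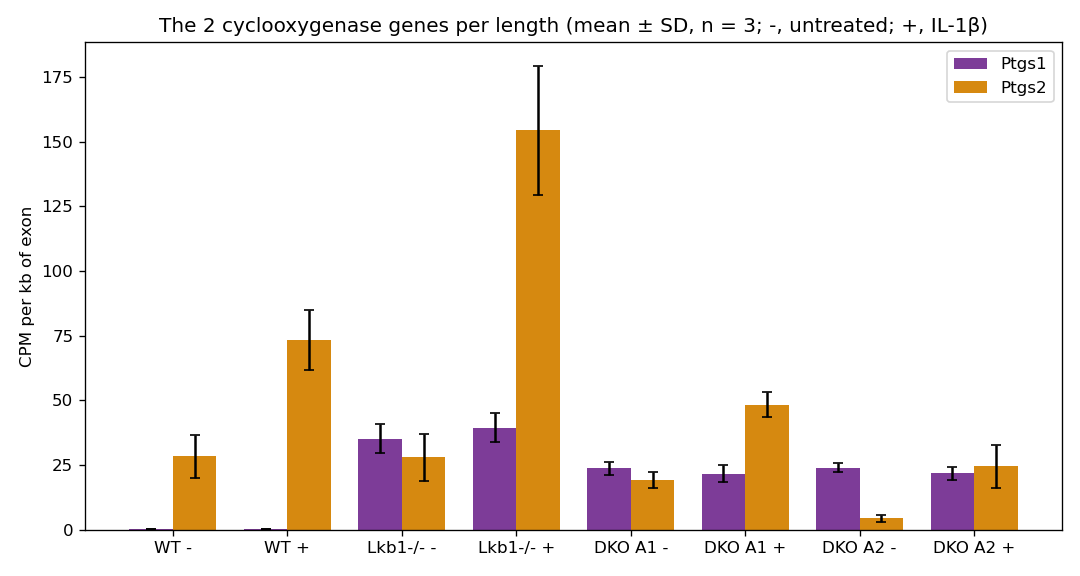
Level of *Ptgs1* and *Ptgs2* per kb of exon in the 8 groups (CPM per kb, bars are means and whiskers SD, n = 3). *Ptgs1* is at 0.214 and 0.208 in the wild-type groups and between 21.5 and 39.4 in the others, and *Ptgs2* is highest, at 154.5, in *Lkb1*-/- MEFs with IL-1β.

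*Ptges* encodes the inducible PGE2 synthase that works together with COX-2. Its untreated levels were 0.134, 0.230 and 0.730 CPM in wild-type and 2.87, 2.97 and 3.52 CPM in *Lkb1*-/- MEFs, and with IL-1β 0.321, 0.514 and 0.440 against 11.7, 13.7 and 18.5 CPM. Every *Lkb1*-/- library was above every wild-type library, with log2 fold changes of 3.13 ± 0.43 (adjusted p = 2.5e-06) without treatment and 5.10 ± 0.43 (adjusted p = 1.5e-09) with IL-1β. Untreated wild-type replicate 3 held 28 of the 44 wild-type counts, and without it the untreated fold change was 4.02. *Ptges2*, a synthase made at a steady level, lay between 14.7 and 24.8 CPM in all 24 libraries. It was 0.20 ± 0.07 higher on the log2 scale in *Lkb1*-/- MEFs with IL-1β (adjusted p = 0.018), a call that was lost without *Lkb1*-/- IL-1β replicate 1 (0.17, adjusted p = 0.069) and without wild-type IL-1β replicate 3 (0.18, adjusted p = 0.094), as in the unstranded counts (0.15, adjusted p = 0.099) and without the filter on low counts (0.23, adjusted p = 0.16). It differed by -0.07 ± 0.07 without treatment (adjusted p = 0.44).

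*Ptgis*, the prostacyclin synthase, and *Hpgd* were near the detection limit. *Ptgis* had 1 count over the 6 wild-type libraries together, in untreated replicate 2, and 11, 9 and 10 counts in the untreated and 9, 17 and 4 in the IL-1β-treated *Lkb1*-/- libraries. The ratio of summed counts without treatment was 29.4, with an exact 95% counting interval from 4.88 to 1198, and with IL-1β the *Lkb1*-/- level was at least 3.0-fold higher than the wild-type floor of 3 counts per library. Both comparisons were called (adjusted p = 0.00071 and 0.00028), with the limit on direction given above. *Hpgd* had at most 2 counts in any wild-type library, 6, 9 and 10 in untreated *Lkb1*-/- MEFs, 4, 9 and 0 with IL-1β, 4, 5 and 3 in untreated clone A2, 3, 2 and 0 with IL-1β, and 0 in all 6 libraries of clone A1. Without the filter on low counts it was called higher in untreated *Lkb1*-/- than in wild-type MEFs (adjusted p = 0.0024) and lower in clone A1 than in *Lkb1*-/- MEFs, untreated (adjusted p = 0.00043) and with IL-1β (adjusted p = 0.011), and higher in untreated clone A2 than in clone A1 (adjusted p = 0.016), on counts that do not exceed 10.

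*Ptger2* encodes EP2, a receptor that raises cAMP. It had no count in any of the 6 wild-type libraries and 245, 174 and 190 counts in untreated *Lkb1*-/- libraries, at 5.55, 4.04 and 4.52 CPM, so that the level was at least 65.8-fold higher than a floor of 3 counts per wild-type library. With IL-1β the counts were 476, 524 and 529, at 11.4, 10.9 and 12.7 CPM, at least 158-fold higher than that floor. Both comparisons were called (adjusted p = 4.9e-10 and 4.5e-11), with the limit given above that no other direction was possible. The gene *Gm17173* lies on the other strand across *Ptger2* and had 0.455 and 1.13 CPM in the untreated and IL-1β-treated *Lkb1*-/- groups, and the unstranded counts of *Ptger2*, which leave out the shared stretch, stayed between 158 and 469 in *Lkb1*-/- libraries.

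*Ptger3*, which encodes the receptor that lowers cAMP, had no count in wild-type MEFs and between 1 and 7 counts in each *Lkb1*-/- library. It was called in both comparisons (adjusted p = 0.0063 and 0.0013), with the same limit on direction. Its untreated *Lkb1*-/- mean of 0.0702 CPM is under the wild-type floor of 0.0714 CPM, so that no fold is given, and with IL-1β it was at least 1.55-fold higher than the floor. *Ptger4*, which encodes EP4, was found in every library. It lay at 2.08, 2.33 and 2.40 CPM in untreated wild-type and 3.42, 2.71 and 2.76 CPM in untreated *Lkb1*-/- MEFs, groups that did not overlap, with a log2 fold change of 0.39 ± 0.20 and an adjusted p of 0.11. With IL-1β the log2 fold change was 0.47 ± 0.20 (adjusted p = 0.050, over the threshold before rounding). With the replicate number as a block it was 0.47 with an adjusted p of 0.014, where 65.9% of all genes were called. DESeq2 also called it (0.50, adjusted p = 0.033), as did the fits without *Lkb1*-/- IL-1β replicate 1 (0.59, adjusted p = 0.029) or wild-type IL-1β replicate 3 (0.54, adjusted p = 0.045), and those with unstranded counts, DESeq2 size factors, upper quartile normalization, no filter, a minimum of 10 counts or the compared groups alone (0.44 to 0.57). The untreated difference was called with upper quartile normalization (0.47, adjusted p = 0.034).

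*Ptger1*, which encodes EP1, needs a limit on its counts. It was called higher in *Lkb1*-/- MEFs without treatment, at 3.83, 3.04 and 3.79 against 0.715, 0.944 and 0.730 CPM (log2 fold change 2.15 ± 0.24, adjusted p = 9.2e-08), and with IL-1β (1.63 ± 0.24, adjusted p = 4.3e-06). The unstranded counts gave another picture. They held 11, 14 and 10 counts of *Ptger1* in untreated wild-type and 20, 23 and 14 in untreated *Lkb1*-/- libraries, ranges that met at 14, and none of its calls against wild-type remained. The cause of the difference between the stranded and unstranded counts was not tested.

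Markers of other cells moved with the genotype in part. The summed level of 4 endothelial markers lay between 0.370 and 0.678 CPM in wild-type libraries and between 2.06 and 3.85 CPM in the others, most of it *Kdr*, and that of 6 leukocyte markers lay between 2.49 and 5.13 CPM in wild-type libraries and between 4.36 and 8.96 CPM in the others, where *Csf1r* reached 2.37 CPM. The summed level of 6 epithelial markers lay between 0.154 and 0.499 CPM throughout. The part of any such cells in the higher *Ptgs1*, *Ptger2* or *Ptges* was not tested. In bulk RNA, more RNA per cell and more cells with the transcript cannot be told apart.

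The second question was what IL-1β changed within each line. *Ptgs2* was the gene called in all 4 lines, always higher with IL-1β. Called members numbered 1 of 9 in wild-type MEFs and clone A1 (2.26% and 1.99% of all genes tested were called), 4 in *Lkb1*-/- MEFs (*Ptgs2*, *Ptges*, *Ptges2* and *Ptger2*, where 4.74% of all genes were called) and 3 in clone A2 (*Ptgs2*, *Ptges* and *Ptges2*, with 5.68% of all genes called). No member was called lower with IL-1β in this fit. *Ptger1* in clone A2 (-0.67, adjusted p = 0.061) was called lower by DESeq2 (-0.66, adjusted p = 0.018), with upper quartile normalization, in edgeR's newer form, without a filter, with a minimum of 10 counts, with either block and without untreated replicate 1 or IL-1β replicate 3, but not in the unstranded counts (-0.55, adjusted p = 0.61).

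The rise of *Ptgs2* was 1.38 ± 0.26 on the log2 scale in wild-type MEFs (adjusted p = 0.0029) and 2.46 ± 0.26 in *Lkb1*-/- MEFs (adjusted p = 2.4e-06), from the levels given above. In clone A1 it went from 99.6, 92.6 and 71.5 CPM to 237, 196 and 231 CPM, a rise of 1.33 ± 0.26 (adjusted p = 0.0049). In clone A2 it went from 26.3, 17.8 and 15.3 CPM to 90.8, 89.7 and 156 CPM, a rise of 2.50 ± 0.27 (adjusted p = 2.5e-06). The treated libraries were above the untreated ones in every line, and treated clone A2 still overlapped the range of untreated wild-type and *Lkb1*-/- MEFs.

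*Ptges* rose in *Lkb1*-/- MEFs by 2.23 ± 0.35 (adjusted p = 0.00028) and in clone A2, where it went from 1.41, 0.996 and 1.67 CPM to 3.49, 3.31 and 7.20 CPM, by 1.77 ± 0.36 (adjusted p = 0.0039). In clone A1 it lay at 0.537, 0.672 and 0.712 CPM without and at 1.32, 0.990 and 2.17 CPM with IL-1β. These groups did not overlap, and the log2 difference was 1.21 ± 0.41 with an adjusted p of 0.19. In wild-type MEFs the ranges overlapped, with a difference of 0.26 ± 0.51 (adjusted p = 0.94). *Ptger2* rose in *Lkb1*-/- MEFs by 1.31 ± 0.27 (adjusted p = 0.0059). It went from 1.39, 0.984 and 1.19 CPM to 3.04, 1.59 and 3.27 CPM in clone A1 (1.14 ± 0.30, adjusted p = 0.059) and from 2.64, 2.06 and 2.75 CPM to 4.70, 2.46 and 5.44 CPM in clone A2 (0.75 ± 0.27, adjusted p = 0.14), where the ranges overlapped.

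Libraries with the same replicate number deviated together within each line, and a fit with this number as a block called more of these changes. In clone A1 the block gave 1.19 for *Ptges* (adjusted p = 0.0062) and 1.12 for *Ptger2* (adjusted p = 0.0012), and 9.61% of all genes were then called. In clone A2 it gave 0.72 for *Ptger2* (adjusted p = 0.0072) and -0.67 for *Ptger1* (adjusted p = 0.010), with 17.9% of all genes called. Without the block, DESeq2 called both changes in clone A1 (*Ptges* 1.23, adjusted p = 0.047, and *Ptger2* 1.15, adjusted p = 0.0053), as did the fit without a filter (adjusted p = 7.7e-05 and 3.0e-05), which also called *Ptger2* in clone A2 (0.77, adjusted p = 0.0083). *Ptger2* was also called in clone A1 without IL-1β replicate 2 (1.41, adjusted p = 0.015), which made 2 members called beside 1.22% of all genes, and in clone A2 without IL-1β replicate 2 (1.03, adjusted p = 0.023).

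*Ptges2* rose by 0.33 ± 0.07 in *Lkb1*-/- MEFs (adjusted p = 0.0053) and by 0.39 ± 0.07 in clone A2 (adjusted p = 0.0011). In clone A1 it differed by 0.21 ± 0.07 (adjusted p = 0.18), without overlap, and was called with the block inside each line (0.21, adjusted p = 0.039). In wild-type MEFs the difference was 0.06 ± 0.07 (adjusted p = 0.85). The call in *Lkb1*-/- MEFs was lost without untreated *Lkb1*-/- replicate 3 (0.29, adjusted p = 0.066), without a filter (0.34, adjusted p = 0.083) or when the 2 groups were fitted alone (0.36, adjusted p = 0.054). When the groups of clone A2 were fitted alone, *Ptges* (1.80, adjusted p = 0.061) and *Ptges2* (0.41, adjusted p = 0.12) were not called. *Ptger4* changed by 0.08 to 0.30 on the log2 scale over the 4 lines, with overlapping ranges in each and no call. *Ptgis* changed by -0.04 in *Lkb1*-/- MEFs, -0.51 in clone A1 and 0.47 in clone A2, and *Ptger3* by 0.69, -0.62 and -0.21, with overlapping ranges and no call. In wild-type MEFs both were at or near 0.

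**Figure D3:**
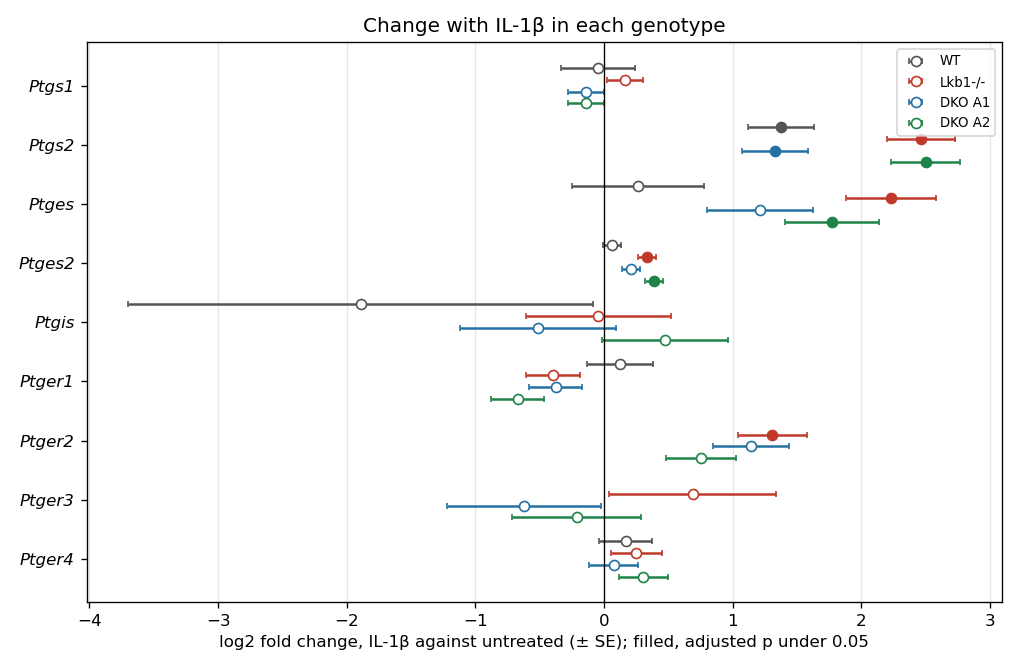
Log2 fold change with IL-1β in each line (x axis, with SE) for the 9 genes tested, filled where the adjusted p is under 0.05. Points with an infinite SE (both groups at 0) are left out. *Ptgs2* is filled in all 4 lines, between 1.33 and 2.50.

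Whether the response itself differed between genotypes was tested as a difference of differences. In edgeR's test no member was called in any of these comparisons. For *Lkb1*-/- against wild-type MEFs 0.245% of all genes were called. There 3 of the 9 members had an unadjusted p under 0.05, beside 985 of all 17522 genes, and DESeq2 called 1 member and 0.691% of all genes. *Ptger2* and *Ptger3*, with no wild-type count, had SEs of 2490 and 1677 in this test and could not be called. For clone A1 against *Lkb1*-/- MEFs 0.0285% of all genes were called, with 1 member and 433 of all genes under 0.05. For clone A2 against *Lkb1*-/- MEFs 0% of all genes were called, with 0 members and 388 of all genes under 0.05. DESeq2 called 0 members in both. The response of *Ptgs2* was 1.09 ± 0.36 larger in *Lkb1*-/- than in wild-type MEFs (adjusted p = 0.45) and that of *Ptges* 1.97 ± 0.62 larger (adjusted p = 0.40). That of *Ptgs2* was 1.13 ± 0.36 smaller in clone A1 than in *Lkb1*-/- MEFs, a difference of -1.13 with an adjusted p of 1.0, and differed by 0.04 ± 0.36 between clone A2 and *Lkb1*-/- MEFs.

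These results changed with the fit. Without a filter on low counts, *Ptgs2* (1.12, adjusted p = 1.5e-19) and *Ptges* (2.0, adjusted p = 4.9e-05) were called for *Lkb1*-/- against wild-type MEFs. *Ptgs2* was also called for clone A1 against *Lkb1*-/- MEFs (-1.12, adjusted p = 3.5e-19). For *Ptgs2* in *Lkb1*-/- against wild-type MEFs the log2 value hardly moved, from 1.09 to 1.12, while the adjusted p fell from 0.45. The p-values of the fit without a filter are therefore not read as stronger support, and the cause of their fall was not tested. The member that DESeq2 called was *Ptges* (2.01, adjusted p = 0.049). With the replicate block, *Ptgs2* (1.10, adjusted p = 0.038) and *Ptges* (1.90, adjusted p = 0.020) were called for *Lkb1*-/- against wild-type MEFs, with 1.77% of all genes called. Blocking on the replicate inside each line was added after the data had been seen. There *Ptgs2* (1.09, adjusted p = 0.0028) and *Ptges* (1.91, adjusted p = 0.0065) were called for *Lkb1*-/- against wild-type MEFs, with 5.72% of all genes called. *Ptgs2* (-1.16, adjusted p = 0.0054) and *Ptgs1* (-0.31, adjusted p = 0.0053) were called for clone A1 against *Lkb1*-/- MEFs, with 1.52% of all genes called. For clone A2, *Ptgs1* alone was called (-0.31, adjusted p = 0.0080), with 1.04% of all genes called.

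The third question was how the *Crtc2*-edited clones differed from the *Lkb1*-/- MEFs they came from. The 2 clones shared a direction in their calls: *Ptgs1*, *Ptges* and *Ptger2* were lower and *Ptger4* and, in the stranded counts alone, *Ptger1* higher in both clones under both treatments, and *Ptgs2* was lower in each of these comparisons but untreated clone A1. Both clones were set against the same *Lkb1*-/- libraries. Called members numbered 5 for untreated clone A1 (35.3% of all genes were called), 7 for untreated clone A2 (32.3%), 6 for clone A1 with IL-1β (36.7%) and 7 for clone A2 with IL-1β (32.8%).

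*Ptgs2* fell in clone A1 with IL-1β by 1.68 on the log2 scale (a change of -1.68 ± 0.26, adjusted p = 2.7e-05), and all 3 treated libraries were below the 3 treated *Lkb1*-/- libraries and also below the 3 treated wild-type libraries. Untreated clone A1 differed by -0.54 ± 0.25 (adjusted p = 0.10), with no overlap. It was called without a filter (-0.55, adjusted p = 2.2e-10), a fit whose p-values have the limit given above. In clone A2 the change was -2.69 ± 0.27 without treatment (adjusted p = 2.3e-07) and -2.66 ± 0.27 with IL-1β (adjusted p = 2.0e-07), and each treated library of clone A2 lay below the lowest treated library of clone A1.

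*Ptges* changed by -2.28 ± 0.40 in untreated clone A1 (adjusted p = 0.00013), by -3.29 ± 0.37 with IL-1β (adjusted p = 7.4e-07), and in clone A2 by -1.20 ± 0.37 (adjusted p = 0.016) and -1.65 ± 0.34 (adjusted p = 0.00072). *Ptger2* changed by -1.98 ± 0.29 and -2.15 ± 0.28 in clone A1 (adjusted p = 4.8e-05 and 1.1e-05) and by -0.92 ± 0.27 and -1.48 ± 0.27 in clone A2 (adjusted p = 0.016 and 0.0004). *Ptger2* was not back to the wild-type level, since the lowest clone library still held 41 counts where the wild-type libraries held 0. *Ptgs1* changed less, by -0.57 ± 0.14 and -0.87 ± 0.14 in clone A1 and -0.56 ± 0.14 and -0.86 ± 0.14 in clone A2 (adjusted p = 0.0029, 4.9e-05, 0.0038 and 7.2e-05), and remained between 73.3 and 103.6 CPM in the clones, against at most 1.11 CPM in wild-type MEFs.

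*Ptger4* went the other way. It lay at 4.88, 5.50 and 5.03 CPM in untreated clone A1 and 4.63, 5.42 and 6.47 CPM in untreated clone A2, above all untreated *Lkb1*-/- libraries, with log2 fold changes of 0.79 ± 0.20 (adjusted p = 0.0033) and 0.89 ± 0.20 (adjusted p = 0.0014). With IL-1β the log2 fold changes were 0.62 ± 0.20 in clone A1 (adjusted p = 0.017) and 0.94 ± 0.19 in clone A2 (adjusted p = 0.00074). The call in treated clone A1 was lost without *Lkb1*-/- IL-1β replicate 1 (0.50, adjusted p = 0.084) and without clone A1 IL-1β replicate 3 (0.53, adjusted p = 0.060). *Ttc33*, which overlaps *Ptger4* on the opposite strand, had 19.5 CPM in untreated *Lkb1*-/- MEFs, 24.5 in untreated clone A1 and 27.3 in untreated clone A2.

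The other receptors and synthases of the clones gave calls of less weight. *Ptger1* was 0.57 to 0.87 higher on the log2 scale over the 4 comparisons (adjusted p between 0.0027 and 0.037), with the limit on its counts given above and with no call in the unstranded counts. Its call in untreated clone A1 was lost without any 1 of the clone's replicates or *Lkb1*-/- replicate 2 (values from 0.47 to 0.61), that in treated clone A1 without the clone's replicate 1 or 3 or *Lkb1*-/- replicate 1 (0.44 to 0.60), and that in treated clone A2 without the clone's replicate 3 or *Lkb1*-/- replicate 1 (0.38 and 0.45) or with the compared groups alone (0.56). In untreated clone A2, *Ptger3* was 1.66 ± 0.59 higher (adjusted p = 0.039), on 5, 13 and 13 counts against 1, 4 and 4. Outside clone A2 no library held more than 7 counts of it, so that it passed the filter through the clone in which it is then higher, and the value is a description. *Ptges2* was 0.22 ± 0.07 higher in clone A2 with IL-1β (adjusted p = 0.017), a call lost without *Lkb1*-/- replicate 2 or 3 or the clone's replicate 3, with upper quartile normalization, without a filter and with the compared groups alone (0.16 to 0.21). *Ptgis* was called in none of the 4 comparisons, with log2 differences from -0.54 to 1.17 in edgeR's test.

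Several of the clone A2 calls without treatment hung on single libraries. Without untreated clone A2 replicate 2 the number of members called was 4 in place of 7, with 27.3% of all genes called, since *Ptges* (-1.0, adjusted p = 0.076), *Ptger2* (-0.78, adjusted p = 0.075) and *Ptger3* (1.44, adjusted p = 0.13) were then not called. Without untreated *Lkb1*-/- replicate 1, *Ptgs1* (-0.40, adjusted p = 0.053), *Ptger2* (-0.75, adjusted p = 0.077) and *Ptger3* (1.27, adjusted p = 0.15) were not called and *Ptges2* was (0.25, adjusted p = 0.032). Without untreated *Lkb1*-/- replicate 3, *Ptges* (-1.09, adjusted p = 0.050) and *Ptger3* (1.94, adjusted p = 0.054) were not called. *Ptger3* was also not called without *Lkb1*-/- replicate 2 (1.91, adjusted p = 0.063), without clone A2 replicate 3 (1.49, adjusted p = 0.11) by DESeq2 (1.70, adjusted p = 0.071) or without a filter (1.64, adjusted p = 0.13). *Ptgs2* was called in every such fit of clone A2.

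**Figure D4:**
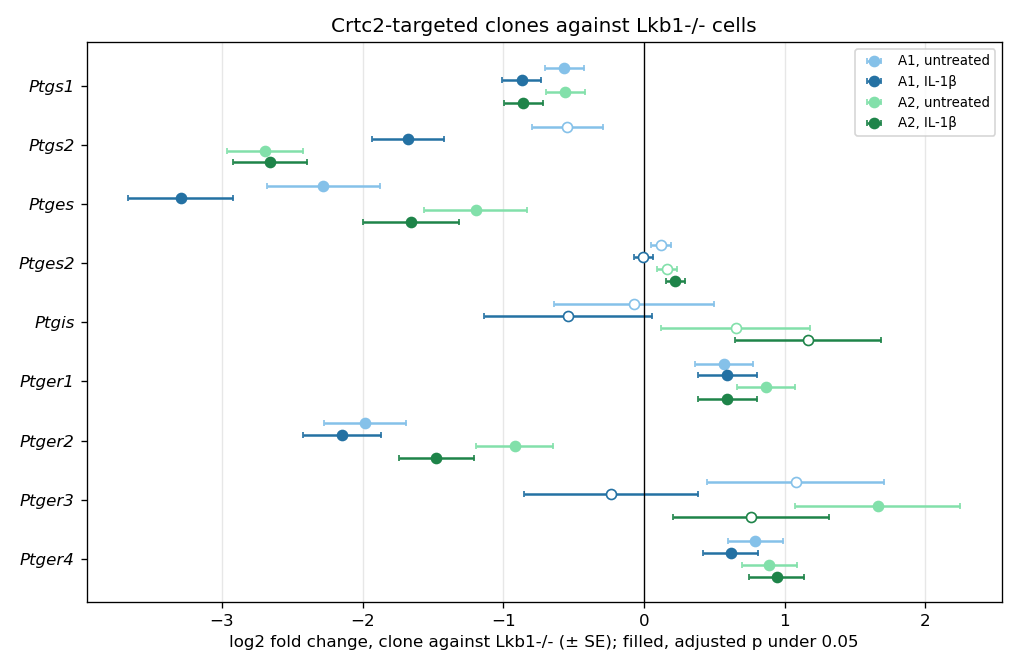
Log2 fold change of the clones against *Lkb1*-/- MEFs (x axis, with SE) for the 9 genes tested, for each clone and treatment, filled where the adjusted p is under 0.05. *Ptgs1*, *Ptges* and *Ptger2* lie left of 0 and *Ptger1* and *Ptger4* right of 0 in all 4 comparisons, all filled, although *Ptger1* was not called in the unstranded counts and changed sign there in 2 of the 4.

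Set against wild-type MEFs, the clones held the high *Ptgs1* and *Ptger2* of *Lkb1*-/- MEFs in part and a lower *Ptgs2*. Called members numbered 6 for untreated clone A1 (55.4% of all genes), 8 for untreated clone A2 (60.6%), 9 for clone A1 with IL-1β (56.9%) and 9 for clone A2 with IL-1β (60.8%). *Ptgs2* differed from wild-type by -0.56 ± 0.25 in untreated clone A1 (adjusted p = 0.067; -0.77 and 0.023 without wild-type replicate 3, -0.61 and 0.048 in unstranded counts, -0.57 and 0.043 by DESeq2, -0.58 and 1.2e-11 without a filter, with the limit on that fit given above), -2.71 ± 0.27 in untreated clone A2 (adjusted p = 2.1e-08), -0.60 ± 0.25 in clone A1 with IL-1β (adjusted p = 0.046) and -1.58 ± 0.26 in clone A2 with IL-1β (adjusted p = 1.6e-05). The call of treated clone A1 was lost without any 1 of its own replicates 1, 2 and 3 and without wild-type IL-1β replicate 1 or 2, with values between -0.48 and -0.65, and with upper quartile normalization (-0.49, adjusted p = 0.12), DESeq2 size factors (-0.58, adjusted p = 0.054) or a minimum of 10 counts (-0.53, adjusted p = 0.083). *Ptges2* was also called there (0.20, adjusted p = 0.021), but not without clone A1 replicate 2 (0.15) or wild-type replicate 2 (0.19) or 3 (0.19), in the unstranded counts (0.17), without a filter (0.22) or with the compared groups alone (0.19), and with any 1 of the 6 libraries left out 7 or 8 members were called in place of 9. *Ptgs1* was 6.70 to 6.80 higher in the 4 comparisons, and *Ptger2* was at least 16.7-fold higher in untreated clone A1 and at least 34.8-fold higher in untreated clone A2 than the wild-type floor. *Ptger4* was 1.09 to 1.42 higher, called in each. *Ptger1* was 2.22 to 3.02 higher in the stranded counts, called in each, with no call in the unstranded counts. *Ptger3* was at least 2.10-fold higher in clone A1 and 3.21-fold higher in clone A2 without treatment, and at least 1.31-fold and 2.65-fold higher with IL-1β. For *Ptgis* the counting ratio without treatment was 28.1 in clone A1 (exact 95% interval from 4.64 to 1148) and 45.8 in clone A2 (7.85 to 1844), and with IL-1β it was at least 2.10-fold and 6.87-fold higher. Both genes were called in each comparison and, like *Ptger2*, passed the filter through groups other than wild-type. *Ptges* was called in 3 of the 4, the exception being untreated clone A1 (0.85 ± 0.48, adjusted p = 0.15), where leaving out untreated wild-type replicate 3 gave 1.76 and an adjusted p of 0.0060 and the fit without a filter 0.83 and 0.021. The same replicate moved the value of untreated clone A2 from 1.94 to 2.85.

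Clones A1 and A2 were compared directly. *Ptgs2* was lower in clone A2, by a log2 difference of -2.15 ± 0.27 without treatment (adjusted p = 3.1e-06) and -0.98 ± 0.25 with IL-1β (adjusted p = 0.0053). *Ptges* was higher in clone A2, by 1.08 ± 0.41 (adjusted p = 0.049) and 1.64 ± 0.36 (adjusted p = 0.0015). *Ptger2* was higher in untreated clone A2 by 1.06 ± 0.29 (adjusted p = 0.010) and by 0.67 ± 0.27 with IL-1β (adjusted p = 0.075; 0.68 and 0.046 by DESeq2, 0.66 and 0.016 without a filter, 0.67 and 0.0050 with the replicate block, where 44.4% of all genes were called). Over the 9 genes, 3 were called without treatment (32.5% of all genes) and 4 with IL-1β (30.7%), among the latter *Ptges2* (0.23 ± 0.07, adjusted p = 0.016) and *Ptgis* (1.71 ± 0.55, adjusted p = 0.024). With IL-1β, 2 members were called without clone A1 replicate 3, with 26.3% of all genes called, since *Ptges2* (0.21, adjusted p = 0.076) and *Ptgis* (1.81, adjusted p = 0.051) were then not called. *Ptges2* was also lost without clone A1 replicate 1 (0.19) or clone A2 replicate 3 (0.16), with upper quartile normalization (0.21), without a filter (0.21) and with the compared groups alone (0.21), and *Ptgis* without clone A2 replicate 1 (1.23) or clone A1 replicate 2 (1.35), with the compared groups alone (1.70) and in unstranded counts (1.49). *Ptgs1* differed by 0.01 in both comparisons, *Ptger1* by 0.30 and 0.00162, *Ptger3* by 0.58 and 1.00, and *Ptger4* by 0.10 and 0.33, without a call and with overlapping ranges. Without treated clone A2 replicate 1, *Ptger4* was called with IL-1β (0.52, adjusted p = 0.033), and without its replicate 2 *Ptger2* was (0.95, adjusted p = 0.0092). The untreated call of *Ptges* was lost without any 1 of the clone libraries but clone A2 replicate 2 (0.93 to 1.17) and in edgeR's newer quasi-likelihood form (1.09, adjusted p = 0.086) and in unstranded counts (1.05, adjusted p = 0.059).

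The order of the 8 groups differed from gene to gene. *Ptgs2* ran from *Lkb1*-/- with IL-1β (708 ± 114 CPM, mean ± SD, n = 3) to wild-type with IL-1β (336 ± 52.8), clone A1 with IL-1β (221 ± 22.0), untreated wild-type (129 ± 38.6), untreated *Lkb1*-/- (128 ± 42.0), clone A2 with IL-1β (112 ± 37.9), untreated clone A1 (87.9 ± 14.6) and untreated clone A2 (19.8 ± 5.76). The neighbors from untreated wild-type to untreated clone A1 overlapped one another, and the others did not. *Ptger2* ran from *Lkb1*-/- with IL-1β (11.7 ± 0.927) to untreated *Lkb1*-/- (4.70 ± 0.770), clone A2 with IL-1β (4.20 ± 1.55), clone A1 with IL-1β (2.63 ± 0.912), untreated clone A2 (2.48 ± 0.371) and untreated clone A1 (1.19 ± 0.203), with both wild-type groups at 0. Its neighbors from untreated *Lkb1*-/- to untreated clone A2 overlapped, and the others with counts did not. *Ptger4* had the reverse end on top, with the 4 clone groups between 5.14 and 6.81 CPM, above both *Lkb1*-/- groups (2.96 and 3.53) and both wild-type groups (2.27 and 2.55).

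By likeness of the 8 group means on the log2 CPM scale, *Polr2h* (Pearson r = 0.978), *Pla2g12a* (0.971), *Psma7* (0.969), *Ccdc58* (0.960) and *Camk2d* (0.960) were closest to *Ptgs2* among 9369 genes with a mean log2 CPM above 3. This is a description over 8 group means that share libraries. Their own range was narrow, as *Polr2h* lay between 23.5 and 33.3 CPM over the groups.

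The rest of the pathway was described from a list of 27 genes, of which 19 passed the filter. For *Lkb1*-/- against wild-type MEFs 5 were called higher and 6 lower without treatment and 5 higher and 7 lower with IL-1β, beside 55.9% and 57.4% of all genes called, shares near those of the list. Among the higher ones, *Ptgfr* had 2 and *Ptgir* 0 wild-type counts under either treatment. They passed the filter through other groups and could be called in no other direction, so that these counts are a description. The median log2 differences were -0.07 and 0.04. In edgeR's test of IL-1β against no treatment, 1 was called higher in wild-type MEFs, 4 in *Lkb1*-/- MEFs, 0 in clone A1 and 5 in clone A2, and none lower, beside 2.26%, 4.74%, 1.99% and 5.68% of all genes called.

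Among genes that release arachidonic acid, *Pla2g4a*, the cytosolic phospholipase A2 next to *Ptgs2* on chromosome 1, went from 103 ± 3.37 CPM in untreated wild-type to 44.5 ± 2.05 in untreated *Lkb1*-/- MEFs (log2 fold change -1.21 ± 0.08, adjusted p = 5.7e-11) and rose with IL-1β in *Lkb1*-/- MEFs by 0.41 ± 0.08 (adjusted p = 0.0036). *Pla2g12a* rose in clone A2 by 0.45 ± 0.10 (adjusted p = 0.0069). Of the synthases, *Ptgds*, which makes prostaglandin D2, lay at 1.76 ± 0.487 CPM in untreated wild-type and 0.0556 ± 0.0962 in untreated *Lkb1*-/- MEFs (-4.94 ± 0.69, adjusted p = 2.8e-06). *Ptges3*, a cytosolic PGE2 synthase that is also a cochaperone, was -0.63 ± 0.06 lower in the same comparison (adjusted p = 5.3e-09). *Akr1b3*, an aldose reductase that can form prostaglandin F2α, was the list gene that rose with IL-1β in wild-type MEFs, by 0.56 ± 0.10 (adjusted p = 0.0019).

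Of the 5 receptors of other prostaglandins listed, 3 were tested. *Ptgfr*, the receptor of prostaglandin F2α, had 2 counts over the 3 untreated wild-type and 2489 over the 3 untreated *Lkb1*-/- libraries, a counting ratio of 1218 with an exact 95% interval from 337 to 10066, and rose with IL-1β in *Lkb1*-/- MEFs by 1.10 ± 0.23 (adjusted p = 0.0054). *Ptgir*, the prostacyclin receptor, had 0 counts in wild-type MEFs and was at least 2.38-fold higher in untreated *Lkb1*-/- MEFs. *Ptgdr2*, a receptor of prostaglandin D2 named after its value was seen, was lower there (-1.42 ± 0.59, adjusted p = 0.045), and with IL-1β differed by -1.38 ± 0.75 (adjusted p = 0.12). *Slco2a1*, which carries prostaglandins into cells, went from 0.955 ± 0.218 to 32.4 ± 7.81 CPM (5.07 ± 0.33, adjusted p = 3.1e-11), and *Ptgr1*, which breaks prostaglandins down after HPGD, rose by 2.95 ± 0.15 (adjusted p = 3.1e-13). *Abcc4*, an exporter of PGE2, was lower in *Lkb1*-/- MEFs by a log2 difference of -1.50 ± 0.09 (adjusted p = 4.2e-12) and higher with IL-1β in *Lkb1*-/- MEFs by 0.43 ± 0.09 (adjusted p = 0.0032).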

How the data were processed

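The series measured RNA-seq in 3T3 MEFs, 24 libraries in 8 groups of 3. The authors trimmed paired reads with Trim Galore 0.6.0, aligned them with STAR 2.7.8a to GRCm38.p6 with GENCODE vM24 annotation and deposited raw counts of read pairs for each gene, once without strand and once per strand. Values here are from the second strand, which had 95.5% to 96.0% of all stranded assignments. Pairs naming no gene, 26.7% to 34.4% in a library, were left out. Per the labels the kit was SMARTER mRNA-Seq, whereas the methods of the study name KAPA HyperPrep with depletion of ribosomal RNA, so the kit is not settled. Symbols, positions and exon lengths came from GENCODE M21 on the same build, which named 55144 of 55471 identifiers.

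Genes were filtered with edgeR's filterByExpr (minimum count 10, minimum total 15), counts were scaled with TMM, and edgeR 4.0.16 in R 4.3.3 (limma 3.58.1, DESeq2 1.42.0 as an alternative) fitted the older quasi-likelihood form to all 24 libraries with 1 coefficient per group, after the study's methods. The fit was tested on simulated data. Adjusted p-values run over all 17522 genes. The SE is the size of the log2 fold change divided by the square root of F. A floor of 3 counts per library was used where a group had no count, and intervals and floors cover counting error only. The members and lists were chosen with earlier results of these data known. The rule for named genes takes all members in every comparison, and values of members without a call are not given for each of them, above all in the tests of a difference in response. Of the other pathway genes, values are given for at most 3 of each kind (release, synthesis, transport and breakdown, receptors), those with the largest log2 fold change among genes called for *Lkb1* under both treatments or with IL-1β in a genotype.

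Alternatives were unstranded counts, DESeq2 size factors, upper quartile normalization, edgeR's newer form, no filter, a minimum of 10 counts per library, a block on the replicate number, DESeq2, fitting the compared groups alone and each library left out. The fit without a filter gave far smaller adjusted p-values for *Ptgs2* at near equal log2 values, and its p-values are not read as stronger support. The block within each line was added after the data had been seen. Pairing was checked by the correlation of deviations from the group means for same-numbered libraries. It lay between 0.0355 and 0.589 over 84 pairs, and a comparison was described as paired where its 3 correlations were over 0.1. That held for IL-1β within each line, for *Lkb1*-/- against wild-type MEFs and A2 against A1 with IL-1β, and for the clones against *Lkb1*-/- MEFs but untreated clone A1. The fit with 1 coefficient per group used no block, so that its p-values take no account of this pairing. Protein sequences were not used here.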

Additional observations from a re-analysis of the deposited data

Results flagged for a closer look

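The 2 clones carry the same edits by their labels, and the direct test of clone A2 against clone A1 called 7 differences among the prostaglandin genes. Without treatment these were *Ptgs2* (log2 difference -2.15), *Ptges* (1.08) and *Ptger2* (1.06). With IL-1β they were *Ptgs2* (-0.98), *Ptges* (1.64), *Ptges2* (0.23) and *Ptgis* (1.71). The sign for *Ptgs2* was opposite to that for *Ptges* under both treatments. Over all genes tested, 32.5% and 30.7% were called between the clones, beside 3 and 4 of the 9 members.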

How the results depend on the processing

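The 9 members tested were fitted again under each alternative where it applied and where they passed its filter. Of these values 2543 kept their side of the threshold, among them 73 uncalled ones that changed sign at sizes of at most 0.32 on the log2 scale, 77 lost a call, 65 gained one and 4 called ones changed sign. The last were *Ptger1* in unstranded counts, called higher in the stranded counts and not called here, with -0.00652 for *Lkb1*-/- against wild-type MEFs with IL-1β, -0.45 for untreated clone A1 and -0.00990 for treated clone A2 against *Lkb1*-/- MEFs, and -0.0164 for treated clone A2 against wild-type MEFs.

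A demand for 10 counts in each library left 5 members and so lowered the numbers called: 2 (untreated) and 5 (IL-1β) for *Lkb1*-/- against wild-type MEFs, 2 for IL-1β in *Lkb1*-/- MEFs, 3 and 4 for untreated clones A1 and A2 against *Lkb1*-/- MEFs, 3 and 4 untreated and 4 and 5 treated against wild-type MEFs, and 1 and 2 between the clones. Over all genes this filter gave 61.5% and 62.7%, 6.32%, 43.6% and 40.6%, 60.5%, 66%, 62.2% and 66.3%, and 41.6% and 39.4% called, in the same order. Without a filter 3 members were called for IL-1β in clone A1 (2.47% of all genes), 5 in clone A2 (4.47%), and for the differences of responses 2 for *Lkb1*-/- minus wild-type (0.943%) and 1 for clone A1 minus *Lkb1*-/- MEFs (0.383%). With the replicate block these were 3, 5 and 2 for IL-1β in clone A1, in clone A2 and *Lkb1*-/- minus wild-type, where 9.61%, 17.9% and 1.77% of all genes were called. The block also gave calls in comparisons whose libraries were not paired, *Ptgs2* for untreated clone A1 against *Lkb1*-/- (-0.52) and wild-type MEFs (-0.54), *Ptges* for the latter (0.88) and *Ptger4* for untreated *Lkb1*-/- against wild-type MEFs (0.40). With the block set inside each line, 5 and 6 members were called for IL-1β in clones A1 and A2 (16.3% and 26% of all genes), *Ptgs1* among them (-0.15 and -0.14; 0.16 and also called in *Lkb1*-/- MEFs), and 2, 2 and 1 for the 3 differences of responses (5.72%, 1.52% and 1.04%). Beyond these and those given beside the results, the replicate block changed no call. Of the 24 libraries, 23 lay closest to libraries of their own number, a hint from the data and not from the design. DESeq2 called 3 members for IL-1β in clone A1 (3.27% of all genes) and 1 for the response of *Lkb1*-/- minus wild-type MEFs (0.691%). Fitting the compared groups alone called 1 member for IL-1β in clone A2 (1.54%) and 2 between the treated clones (26.7%). With a library left out, the number called ranged from 1 to 2 for IL-1β in clone A1 (1.22% of all genes where 2 were called). It ranged from 4 to 7 for untreated clone A2 against *Lkb1*-/- MEFs (27.3% where 4 were called). Between the treated clones it ranged from 2 to 5 (26.3% where 2 were called). The causes were not tested. Upper quartile normalization moved the median of all genes by up to 0.11 on the log2 scale. Depth limits *Hpgd*, *Ptgis* and *Ptger3*, with at most 36 counts in any library.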

Other observations

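*Ptgs2os2*, a long noncoding RNA on the minus strand at chr1:150159043-150164948, beyond the end of *Ptgs2*, was looked at after its values had been seen. It lay at 1.41 ± 0.353 CPM (mean ± SD, n = 3) in untreated wild-type and 9.27 ± 0.828 in untreated *Lkb1*-/- MEFs, where *Ptgs2* did not differ, and the log2 fold change was 2.71 ± 0.21 (adjusted p = 3.2e-10 in edgeR's quasi-likelihood test). With IL-1β it rose to 3.93 ± 0.719 and 25.2 ± 2.03 CPM, by 1.47 ± 0.21 and 1.44 ± 0.18 on the log2 scale (adjusted p = 0.00016 and 2.0e-05). In untreated clones it lay at 2.84 ± 0.255 (A1) and 2.44 ± 0.843 CPM (A2), lower than in *Lkb1*-/- MEFs by log2 differences of -1.70 ± 0.19 and -1.92 ± 0.19 (adjusted p = 7.3e-07 and 2.3e-07), and the clones differed from each other by -0.21 ± 0.20 (adjusted p = 0.46). *Ptgs2os*, the noncoding RNA that starts head to head with *Ptgs2*, was lower in untreated *Lkb1*-/- than in wild-type MEFs by a log2 difference of -0.88. With IL-1β this difference was -0.13 ± 0.20 (adjusted p = 0.61). Within *Lkb1*-/- MEFs *Ptgs2os* rose with IL-1β by 1.16 ± 0.21 (adjusted p = 0.0011).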
